A study of Homo sapiens with 18 samples.

Results

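Transient loss hybrid regions are stretches of the genome with a peak of DRIP-seq, which maps DNA:RNA hybrids, in untreated HCT116 cells. They carried no peak after 5 min of camptothecin (CPT) and carried one again after 60 min. HCT116 is a human colorectal carcinoma line, and CPT is a poison that holds topoisomerase I (Top1) on the DNA it has cut. The regions were chosen by the presence of DRIP peaks alone: a peak in both lists of untreated cells (NT), in both lists of 60 min and in neither list of 5 min. Peaks shared by the 2 replicates of a treatment were merged, and the 3 treatments were merged into 28518 regions, of which 436 (1.53%) met this rule. The authors' class of this name was built otherwise, from peaks selected against RNase H libraries and from differences in normalised read counts. Neither step was applied here, so a peak is a DRIP call and not a hybrid shown to be sensitive to RNase H. Presence and peak height in the 6 DRIP lists chose the members or go with that choice, so they are given as a description and were not tested.

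In DRIP-seq, genomic DNA is cut with restriction enzymes, fragments that carry DNA:RNA hybrids are pulled down with the antibody S9.6, and the fragments are sequenced. The treatments were none (NT) or 10 μM CPT, for 5 min or for 60 min. These are times of exposure. Per the authors, cells were harvested and washed before lysis, so lysis came some minutes after CPT was removed. At sites of hybrid gain they reported that trapped Top1 was reversed in such a recovery, and that hybrid detection depended on it. Each had 2 biological replicates, and each replicate pooled DRIP reactions run in parallel. Each replicate gave a DRIP library, a library whose DNA was digested with RNase H before the pull-down, and an input library. The data are the peak lists of the 6 DRIP and 6 RNase H libraries, which hold no read counts, so the depth behind a missing peak is unknown here and a missing peak means only that no call passed the threshold. The sample labels do not say that replicates of equal number were grown together.

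An R-loop forms when nascent RNA pairs with the template strand behind RNA polymerase II and leaves the other DNA strand unpaired. R-loops are common at promoters and at the ends of genes, are favoured by G-rich non-template DNA and by negative supercoiling, and are removed by RNase H, which cuts the RNA of a hybrid, and by helicases. Top1 relaxes the supercoils that transcription makes, and a trapped Top1 blocks RNA polymerase II.

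The DNA around the summit of the tallest NT peak of replicate 2 is shown for 5 of the strongest members that lie in or beside a protein-coding gene. The windows show the bases around a summit, not the composition of a whole member. At BTBD2, NAP1L1 and LTBP4 the summit lay near an edge, so the window ran past both the peak and the member. These peaks ended at 2016495 (BTBD2) and 76478994 (NAP1L1) and started at 41125205 (LTBP4). Counts for those windows include bases outside the peak. Passed over in that order were windows that touched an untranslated region, a window on chromosome X far from any gene, and the windows near MTX1 and in CDK11A, where similar copies elsewhere may share reads. Each window is 240 bases of GRCh37 centred on the summit, written 5′ to 3′ on the strand of the gene it lies in (or on the plus strand outside genes), with runs of at least 3 G in capitals.
BTBD2, chr19:2016373-2016612, minus strand: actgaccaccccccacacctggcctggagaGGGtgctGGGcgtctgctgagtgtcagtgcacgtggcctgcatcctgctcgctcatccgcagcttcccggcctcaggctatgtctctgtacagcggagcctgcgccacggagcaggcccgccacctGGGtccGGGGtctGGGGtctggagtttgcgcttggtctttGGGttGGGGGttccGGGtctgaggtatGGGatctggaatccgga
NAP1L1, upstream of the gene, chr12:76478873-76479112, plus strand: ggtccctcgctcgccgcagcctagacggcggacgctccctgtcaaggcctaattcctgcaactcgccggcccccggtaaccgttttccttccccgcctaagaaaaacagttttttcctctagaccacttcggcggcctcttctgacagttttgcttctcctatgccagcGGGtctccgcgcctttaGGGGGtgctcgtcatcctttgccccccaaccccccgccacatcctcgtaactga
CCER2, chr19:39401318-39401557, minus strand: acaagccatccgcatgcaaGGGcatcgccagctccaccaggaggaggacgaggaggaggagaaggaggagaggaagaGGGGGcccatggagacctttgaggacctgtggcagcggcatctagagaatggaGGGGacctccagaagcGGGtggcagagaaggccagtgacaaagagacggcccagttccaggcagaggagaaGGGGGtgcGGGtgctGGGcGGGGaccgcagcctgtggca
DDB2, chr11:47251829-47252068, plus strand: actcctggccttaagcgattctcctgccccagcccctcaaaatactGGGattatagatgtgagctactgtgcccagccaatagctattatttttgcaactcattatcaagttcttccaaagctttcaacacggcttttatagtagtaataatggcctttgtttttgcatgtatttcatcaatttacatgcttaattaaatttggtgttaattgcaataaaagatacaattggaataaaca
LTBP4, chr19:41125086-41125325, plus strand: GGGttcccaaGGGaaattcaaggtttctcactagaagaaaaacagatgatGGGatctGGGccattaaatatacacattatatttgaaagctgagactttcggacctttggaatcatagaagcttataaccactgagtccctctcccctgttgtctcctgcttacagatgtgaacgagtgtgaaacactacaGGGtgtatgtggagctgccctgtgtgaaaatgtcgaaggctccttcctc
The windows ranged from 35.8% GC at DDB2 to 65.4% at BTBD2. The CCER2 window held 101 G against 53 C on the gene strand and 8 G runs. The DDB2 window went the other way, with 37 G, 49 C and 1 G run. The windows were thus not all G-rich on the strand of the gene. A window need not match its member. Over the whole DDB2 member the excess of G over C on the gene strand was 13.5% of G plus C. Over the whole BTBD2 member it was -38.5%, although the BTBD2 window held 85 G and 72 C. The NAP1L1 window, just upstream of a gene on the minus strand, held 51 G and 94 C on the plus strand.

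The edges of many members lay at cuts of the enzymes used to fragment the DNA (Bsr GI, Eco RI, Hind III, Ssp I or Xba I). The windows below hold 30 bases around an edge that the tallest peaks of at least 3 of the 4 NT and 60 min lists shared, with the recognition site in capitals.
BTBD2, Bsr GI, chr19:2016479-2016508, plus strand: cgcaggctccgcTGTACAgagacatagcct
LTBP4, Hind III, chr19:41125192-41125221, plus strand: ttggaatcatagAAGCTTataaccactgag
DDB2, Ssp I, chr11:47249312-47249341, plus strand: attgagctggcaAATATTttaagatctttg
At BTBD2 the tallest peaks of all 4 lists ended at position 2016495, and at LTBP4 all 4 started at 41125205. An edge at a cut site was shared by all 4 lists in 50 members and by at least 3 lists in 144 (33.0%). Of the member peaks, 53.9% in NT replicate 1, 50.3% in NT replicate 2, 43.5% in 60 min replicate 1 and 55.4% in 60 min replicate 2 had an edge at a cut. Over the whole lists the shares were 57.0%, 48.5%, 48.7% and 59.1%. Member peaks thus ended at cut sites about as often as the peaks of the whole lists.

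Peaks of NT and 60 min piled up at the middle of the members, which follows from building the members out of these peaks. The midpoint lay under a peak in 42.9% of members in NT replicate 1, 73.6% in NT replicate 2, 41.3% in 60 min replicate 1 and 71.6% in 60 min replicate 2. At 2000 bp upstream on the chromosome the 4 shares had fallen to 11.0%, 31.7%, 13.5% and 34.9%. By the rule no 5 min peak lies on a midpoint, and the 5 min lists still covered only 4.59% of members in replicate 1 and 12.6% in replicate 2 at 5000 bp downstream.

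**Figure D1:**
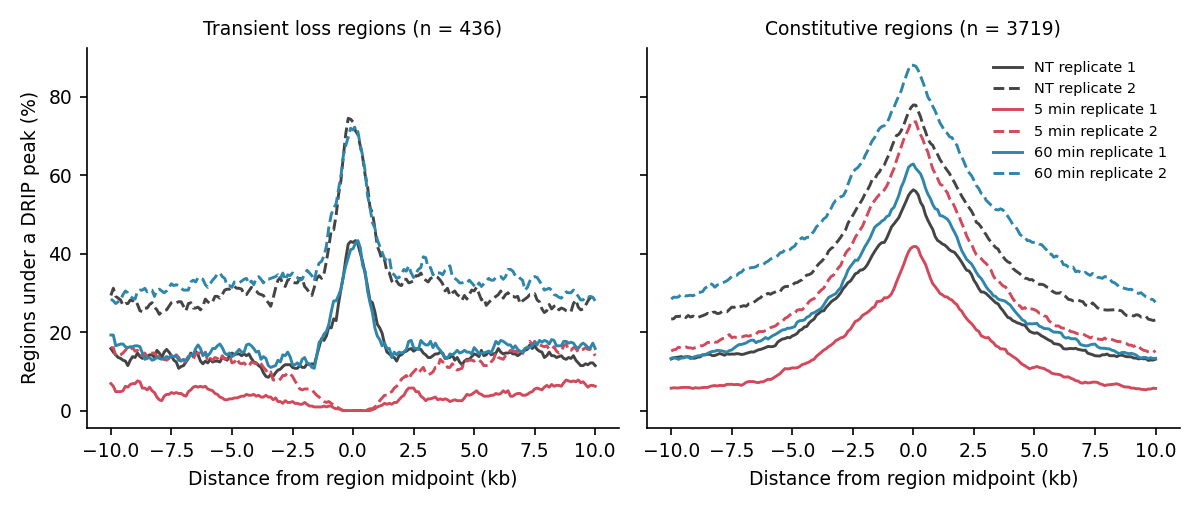
Share of regions (vertical axis, %) under a DRIP peak at each distance from the region midpoint (horizontal axis, kb along the chromosome) for 436 transient loss regions (left) and 3719 constitutive regions with peaks in all 6 lists (right); lines are single libraries, solid for replicate 1 and dashed for replicate 2. In the left panel the NT and 60 min lines of each replicate lie close together, with 42.9% and 41.3% at the midpoint in replicate 1 and 73.6% and 71.6% in replicate 2, and both 5 min lines are at 0 there by the rule.

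The nearest 5 min peak was often not far away. Its median distance from a member was 8840 bp in replicate 1 and 2720 bp in replicate 2, with quartiles of 1161 and 6815 bp in the latter. A 5 min peak of replicate 2 lay within 1000 bp of 95 members and one of replicate 1 within 1000 bp of 33. For 60 members (13.8%) neither 5 min list had a peak within 10 kb. The list of replicate 2 held 56543 peaks and that of replicate 1 held 33852, so its peaks had more chances to lie near.

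Where a member held an NT and a 60 min interval, some overlap of the 2 was fixed by the merging that built the member. Only the extent of the overlap is described. In 365 members the replicates shared an NT interval and a 60 min interval, with median lengths of 1317 and 1439 bp. A median of 80.4% of the NT interval (quartiles 52.9 and 100%) lay inside the 60 min interval. In 105 members all of it did, and in 88 under 50% of it did. In constitutive regions the median was 97.0% (n = 3490). The interval of NT in 34 members and that of 60 min in 37 was not shared by both replicates, whose peaks met the member at different places. The FBXL8/HSF4 locus is among the latter. FBXL8 encodes an F-box protein and HSF4 a heat shock transcription factor, and the member lies at chr16:67195567-67198136. It had 1 peak in each list, which covered 579 bp in NT replicate 1, 2570 bp in NT replicate 2, 52 bp in 60 min replicate 1 and 1166 bp in 60 min replicate 2. The percentiles of these peaks within their lists were 43.8, 80.4, 16.1 and 59.2. The return at 60 min was thus narrow and low in replicate 1, where the peak ran from 67198085 to 67198371 and met only the end of the member. The nearest 5 min peaks were 11158 bp away in replicate 1 and 6384 bp away in replicate 2. Members with under 100 bp below the peaks of some list numbered 7.

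Peak height was compared only within a list, as the percentile of the authors' fold enrichment over input. The tallest peak of a member had a median percentile of 44.0 in NT replicate 1 and 74.4 in NT replicate 2, against 50.9 and 69.3 after 60 min. The median fold enrichment was 3.74 and 4.45 in NT and 4.32 and 5.01 after 60 min. From NT to 60 min the median percentile changed by 6.89 points in replicate 1 and by -5.06 in replicate 2, a mean of 0.914 ± 8.45 points (SD, n = 2), so the replicates moved in opposite directions. Of the 436 members, 108 rose in both replicates, 131 fell in both and 197 went opposite ways. Ranks of members were only weakly shared between lists, with Spearman coefficients of 0.22 between the NT replicates, 0.25 between the 60 min replicates, 0.17 between NT and 60 min of replicate 1 and 0.11 in replicate 2. These describe 436 regions that share their libraries. Constitutive regions stood higher in the same lists, with medians of 85.8 and 93.1 in NT and 89.9 and 94.3 at 60 min. They were also wider (median 5787 against 2129 bp), and the tallest peak was taken over the whole region. In NT, stable losses, with no peak after CPT, stood at 39.3 and 58.6. Late losses, with peaks in NT and at 5 min only, stood at 59.2 and 70.3. The part of width in these heights was not tested.

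**Figure D2:**
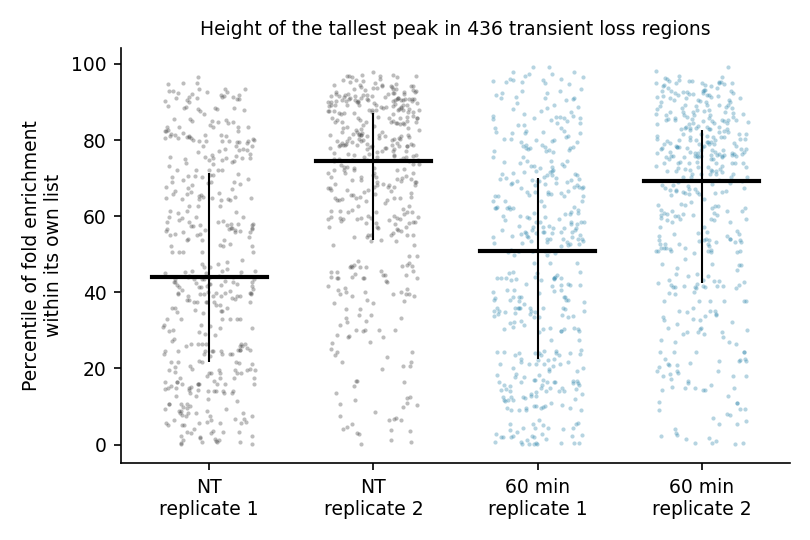
Percentile of the tallest peak of each member within its own list (vertical axis, by fold enrichment) in the 4 lists that carry the class; each point is 1 of 436 regions, thick lines are medians and thin lines join the quartiles. Medians were 44.0 and 74.4 in NT and 50.9 and 69.3 at 60 min, and the points of each list span nearly its whole range.

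The strongest members were ranked by their lowest percentile over the 4 lists. The first lay at chr2:220400210-220403084 inside ASIC4, a gene of the acid-sensing ion channel family, with its midpoint in the promoter window of a neighbouring gene. Its percentiles were 93.5 and 90.3 in NT and 99.2 and 96.1 at 60 min, and the 60 min peaks of both replicates spanned the whole 2875 bp. The RNase H library of 60 min replicate 2 also had a peak there, at percentile 99.8 of its own list. No 5 min peak lay within 42462 bp in replicate 1 or within 3013 bp in replicate 2. The next, at chrX:122184742-122185320, was intergenic, 132685 bp from GRIA3, and low in GC at 40.4%. An intronic member of BTBD2, a BTB domain gene, spanned 662 bp at chr19:2015834-2016495. Its percentiles were 95.1 and 89.1 in NT and 91.8 and 85.3 at 60 min. The fourth lay on a pseudogene 548 bp from MTX1 and the fifth in CDK11A, where reads may be shared with similar copies.

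Among the others, NAP1L1, a histone chaperone gene, carried a member over its start (chr12:76476768-76478994) with percentiles of 83.3, 97.9, 82.1 and 92.6 in NT replicates 1 and 2 and 60 min replicates 1 and 2. DDB2, which encodes a DNA damage recognition protein of nucleotide excision repair and is a p53 target, carried an intronic member (chr11:47249327-47252275). Its 4 percentiles were 81.9, 83.3, 80.8 and 88.8, but they belong to peaks at different places. The tallest NT peak ran from 47249327 to 47249852 in replicate 1 and from 47251554 to 47252275 in replicate 2. Of the NT interval, 58.9% lay inside the 60 min interval. At HCFC1, a transcriptional co-regulator gene, the peaks covered 2592 and 3796 bp in NT and 2216 and 1451 bp at 60 min, less in both replicates. Of the 20 members with the highest rank, 17 met a protein-coding gene and 7 lay on chromosome 19. They also included NFKBIB and CCER2, HOOK2 and MAST1, LTBP4, QSOX2, USP19, BCAT2, an intergenic stretch 42699 bp from KCNC2, CLN6, HEXD, DPH2 and ATP6V0B, and DNM2. At HOOK2 and DNM2 only 8.65% and 10.0% of the NT interval lay under the 60 min interval, so a high rank did not require the same bases.

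The rule has a threshold in the peak call, and the lowest −log10 q of any DRIP list was 1.3. Just inside, the weakest peaks of the 5 members with the lowest value had a −log10 q of 1.31 (CACNG8, NT replicate 1), 1.31 (RHOD, NT replicate 1), 1.31 (PRODH, NT replicate 1), 1.32 (ADAM8, 60 min replicate 1) and 1.32 (the member shared by ZNF324 and ZNF446, 60 min replicate 1). Just outside were regions kept out by 1 weak 5 min peak, at KLK6 and NINJ1 (−log10 q of 1.34), CLIP2 and UNK (1.35) and GRN (1.36). These peaks were in replicate 2 except at GRN, and their fold enrichment was 2.48 to 2.80. Of 5838 regions with peaks in both NT and both 60 min lists, 3719 had peaks in both 5 min lists, 1596 in that of replicate 2 only, 87 in that of replicate 1 only and 436 in neither. The longer 5 min list, that of replicate 2, thus kept out most of the regions that 1 list decided.

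Membership moved with width. Among those 5838 regions, 17.5% of regions up to 1 kb had no 5 min peak, as did 15.7% from 1 to 2 kb, 12.8% from 2 to 4 kb and 3.27% from 4 to 8 kb. Over 8 kb it was 3 of 1424 regions (0.211%). The members had a median width of 2129 bp (range 381 to 8730), against 5787 bp for constitutive regions and 867 bp for stable losses, which had peaks in both NT lists and none after CPT. A wider region offers more bases for a 5 min peak to meet, so this order follows in part from the rule.

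**Figure D3:**
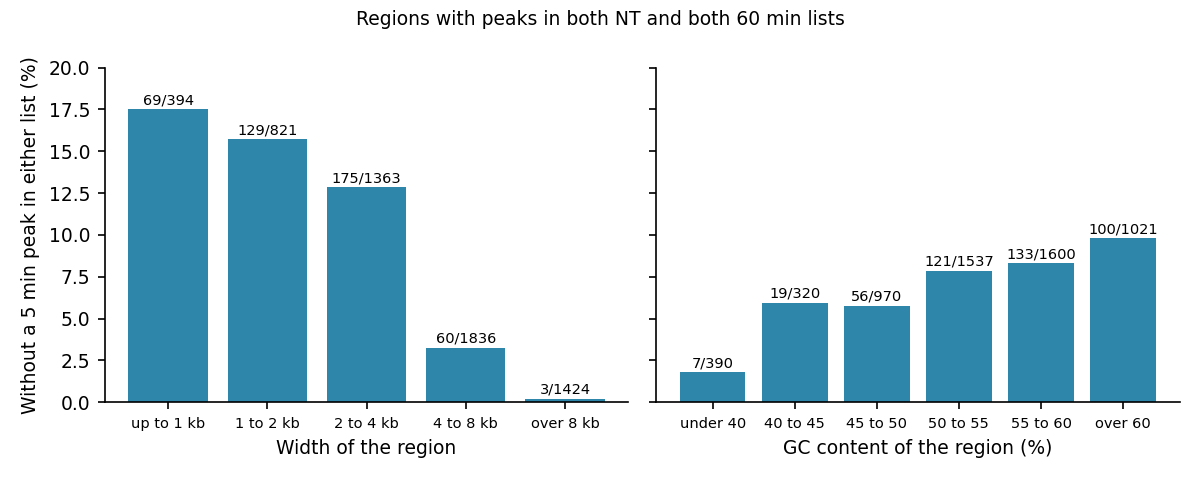
Share of regions without a 5 min peak in either list (vertical axis, %) among the 5838 regions with peaks in both NT and both 60 min lists, by region width (left) and by GC content (right); each bar carries the count of members over regions. The share was 17.5% up to 1 kb and 0.211% over 8 kb, and it was 1.79% under 40% GC and 9.79% over 60% GC.

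The members were rich in GC. Their median was 55.7% (quartiles 51.2 and 59.5) against 49.0% over all regions, 53.3% in constitutive regions and 54.5% in stable losses. In 4 bands of equal member number, from narrow to wide, their medians were 51.5%, 56.8%, 55.6% and 57.0%, against 46.7%, 48.6%, 49.3% and 53.5% for all regions of those widths. Stable losses of those widths had 52.8%, 56.8%, 57.6% and 58.6%, so high GC was shared with the regions lost at 5 min that did not return. The peaks of the 5 min lists themselves were lower in GC, with medians of 44.7% and 47.9% against 51.2% and 51.9% in NT and 49.1% and 47.5% at 60 min. The part of this in the GC of the members was not tested.

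**Figure D4:**
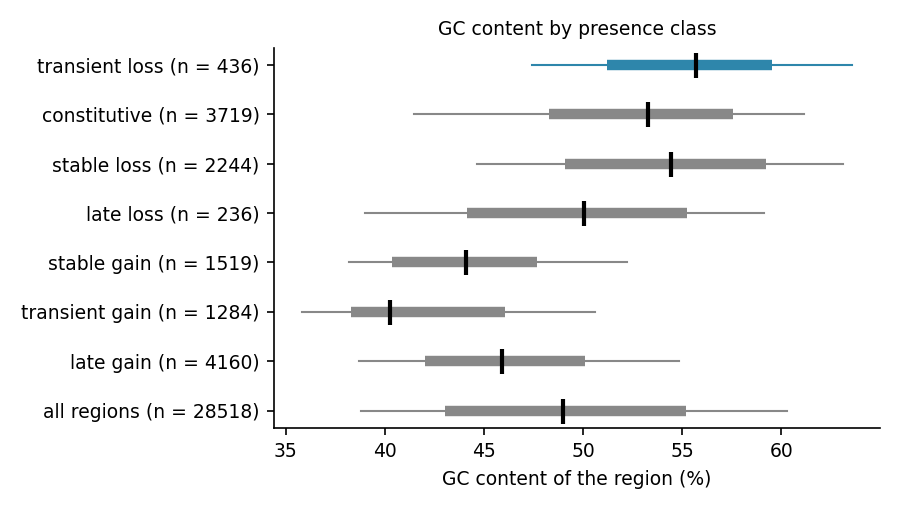
GC content (horizontal axis, %) of regions by their pattern of presence; the tick is the median, the thick bar joins the quartiles and the thin line runs from the 10th to the 90th percentile of regions. Transient losses had the highest median, 55.7%, followed by stable losses at 54.5%; all regions stood at 49.0% and transient gains, present at 5 min only, at 40.3%.

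High GC did not come with a much higher ratio of observed to expected CpG, a ratio that allows for C and G content. The observed over expected CpG ratio had a median of 0.311 in members, 0.300 in all regions and 0.374 in constitutive regions. Runs of at least 3 G on the plus strand numbered 21.1 per kb in members (median), against 14.4 in all regions, 18.8 in constitutive regions and 19.3 in stable losses. In the 339 members whose midpoint lay in genes of a single strand, G exceeded C on the gene strand in 216 (63.7%), with a median excess of 3.02% of G plus C. Over all regions the share was 65.3% and the median 3.17%, so the members were not more skewed to G on the gene strand. Regions are not independent replicates, and no test was run on these differences.

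Members lay in and around genes. A protein-coding gene was met by 370 of 436 members (84.9%, 95% Wilson interval 81.2 to 87.9), against 78.7% of all regions. These intervals hold only the error of counting regions. The midpoint fell in a promoter window, the 5′ untranslated region or the 10 kb upstream of a gene, in 131 members (30.0%, interval 25.9 to 34.5), against 23.4% of all regions. It fell in a terminator window, the 3′ untranslated region or the 10 kb downstream, in 169 members (38.8%, interval 34.3 to 43.4), against 23.0%. In constitutive regions the shares were 31.5% and 33.2%, and in stable losses 14.9% and 24.5%. The windows overlapped where genes are dense, and 70 members lay in a window of each kind. A transcription start was held by 41 members (9.40%), against 13.5% of all regions, 43.6% of the wider constitutive regions and 1.78% of the narrower stable losses. The end of a gene was held by 46 (10.6%), against 7.71%, 27.3% and 4.06%. In a gene but over neither of its ends lay 294 members (67.4%), against 60.8% of all regions and 69.3% of stable losses.

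Chromosome 19, the most gene-dense chromosome, held 88 members (20.2%, interval 16.7 to 24.2), against 8.53% of all regions, 14.8% of constitutive regions and 12.6% of stable losses. The next 3 chromosomes by member count were nearer to the share of all regions: chromosome 1 held 10.8% of members against 9.91%, chromosome 17 held 8.95% against 6.95% and chromosome 16 held 7.34% against 5.50%. The share of peaks on chromosome 19 was 10.9% and 10.7% in the NT lists, 6.89% and 7.51% at 5 min and 8.83% and 6.86% at 60 min, and the part of this was not tested. Off chromosome 19, members kept a median GC of 55.3% against 48.4% for all regions.

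In all, 412 protein-coding genes were met by a member. At 5 min, 227 of them (55.1%) had a peak of both replicates elsewhere in the gene, 107 a peak of 1 replicate and 78 (18.9%) none. Of the 6662 genes met by a region with peaks in both NT lists, 72.8% had a 5 min peak of both replicates and 5.39% had none. Members lack a 5 min peak by the rule, and the 6662 genes include those of constitutive regions, which have one. Genes met by a member were also shorter, with a median of 25600 bp against 32909 bp for genes met by any region. Nothing is therefore read from this contrast. More than 1 member lay in 22 gene models, among them BRPF1, CLASRP, GNAI2, SLC44A2 and PARVB.

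Gene groups were read against the share of all 20163 protein-coding genes with a member within 10 kb, 3.42% (689 genes), or 5.49% of the 12544 genes with any region that near. Of 30 p53 target genes 3 had a member that near. DDB2 is described above, and the members near POLH, a translesion polymerase gene, and SERTAD1, a cell cycle regulator gene, lay outside the genes. The percentiles of the POLH member were 82.5 and 89.3 in NT and 50.3 and 60.8 at 60 min. Of 60 genes of DNA damage response and repair, 2 had a member, OGG1, the glycosylase for oxidised guanine, and FANCA of the Fanconi pathway, again outside the gene. Among 31 genes of topoisomerases, their repair factors, RNase H and R-loop helicases, 3 had a member, which lay inside RTEL1, a helicase gene, and TOP3B, a type IA topoisomerase gene, and near DDX41. The RTEL1 member stood at percentiles of 74.8 and 81.0 in NT and 16.3 and 44.9 at 60 min, and that of TOP3B at 1.51, 41.0, 24.4 and 53.5.

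Channel genes for potassium, sodium, calcium and acid had a member in 8 of 145 (5.52%), among them ASIC4, CACNA1H and KCNIP2. Solute carriers had 18 of 374 (4.81%), led by SLC7A10, SLC44A2, SLC27A4 and SLC8A2, and translation factors 5 of 71 (7.04%), with EIF4E1B, EIF3I, EIF3F and EIF4E2. Zinc finger genes named ZNF, many of them on chromosome 19, had 19 of 508 (3.74%), led by ZNF219, ZNF354A, and ZNF784 and ZNF865, which share a member. Heat shock and chaperone genes had 2 of 31, DNAJB1 and HSF4. Ribosomal protein genes had 1 of 87 (RPL36), epithelial keratin and adhesion genes 1 of 40 (TJP3), WNT and colorectal cancer driver genes 1 of 48 (TCF7L2) and collagen and laminin genes 1 of 56 (LAMB2). None of 33 immediate early genes, 39 HOX genes or 36 SR and hnRNP splicing factor genes had a member within 10 kb, although 31, 20 and 31 of them had some region that near. Each list is small beside the genes of the genome, and no list is called different from the rest.

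The RNase H lists took no part in the choice of members. They are not an independent measure, since each came from the same genomic DNA as its DRIP library and its peaks follow DRIP presence: the list of 60 min replicate 2 met 95.5% of constitutive regions and 11.0% of stable losses. A peak in such a library is a signal that the digestion before the pull-down did not remove. In NT, 0.229% of members were met by a peak of replicate 1, against 0.386% of all regions, and 13.8% by a peak of replicate 2, against 13.2%. At 5 min the members stood at 0.917% and 27.1%, against 2.98% and 43.3% of all regions. At 60 min they stood at 1.83% and 79.6%, against 2.78% and 65.3%. The shares of the replicates differed widely, with lists of 473, 3439 and 5392 peaks in replicate 1 and of 15790, 50353 and 67188 in replicate 2.

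The mean share of members was 7.0 percentage points higher at 5 min than in NT and 33.7 higher at 60 min, differences within the spread of the replicates (SD 9.57 in NT, 18.5 at 5 min and 55 at 60 min, n = 2). Two-sided exact permutation tests gave p = 0.667 for each, and 2 libraries against 2 cannot go below 0.333. With every RNase H list cut to 473 peaks, the length of the shortest, both differences turned to -0.459 points. That is a change of few of the 436 members, and the NT list of replicate 1, which has this length, met only 1. Members minus all other regions gave a mean of -0.771 points ± 9.84 (SD, n = 6 libraries), with members higher in 2 of 6 and p = 0.594 in a two-sided exact sign-flip permutation test. By the share of bases under an RNase H peak, members were lower in 6 of 6 libraries by a mean of 4.89 points (exact permutation p = 0.0312, the smallest possible, not adjusted for the other comparisons). The gap lay mostly in replicate 2, with 7.41% against 24.4% at 5 min and 39.9% against 50.7% at 60 min. Absence of 5 min DRIP peaks chose the members and RNase H peaks follow DRIP presence, so no conclusion is drawn from this test. The members were wider than all regions (median 2129 against 1394 bp). They were narrower than constitutive regions and weaker in their DRIP peaks. The part of these differences was not tested.

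**Figure D5:**
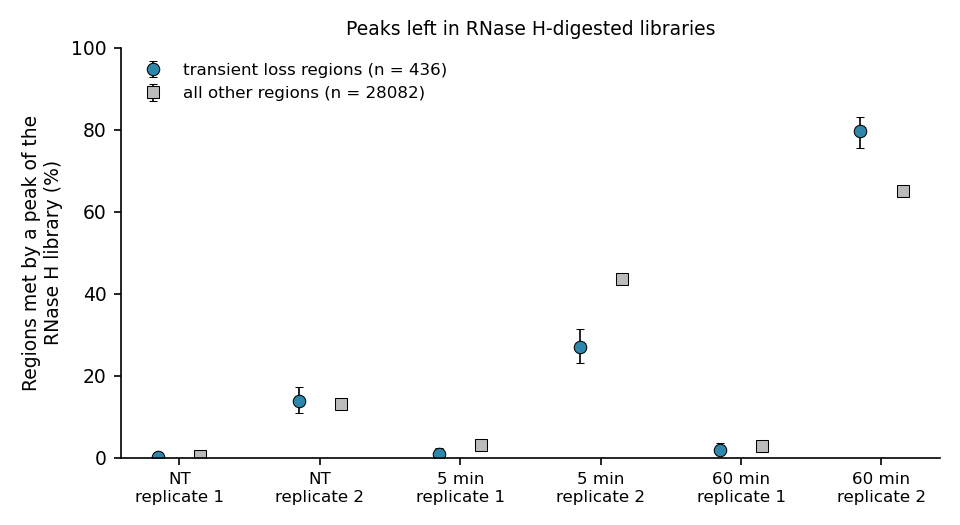
Share of regions met by at least 1 peak of each RNase H-digested library (vertical axis, %), for 436 transient loss regions (circles) and the other 28082 regions (squares), by treatment and replicate; bars are 95% Wilson intervals for counting error. Members stood at 27.1% in 5 min replicate 2 and 79.6% in 60 min replicate 2, and every share of replicate 1 was under 4%.

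In replicate 2, whose RNase H lists differ in length, 240 members (55%) had a peak at 60 min and not at 5 min, against 28.6% of all regions. A peak at both times was met by 107 (24.5%), against 36.8%, and a peak at 5 min only by 11 (2.52%), against 6.54%. Since absence of DRIP peaks at 5 min chose the members, nothing is read from these shares. In 72 members (16.5%) no peak of the 6 lists was met, against 26.6% of all regions. At 5 min, where neither DRIP list had a peak by the rule, 118 members (27.1%) still met an RNase H peak in some list, against 43.7%. Where both had peaks at 60 min in replicate 2 (n = 347), the DRIP peaks covered a median of 1663 bp and the RNase H peaks 907 bp. Of the 20 strongest members, 19 met a peak of 60 min replicate 2, 8 of 5 min replicate 2, 5 of NT replicate 2, 2 of 60 min replicate 1 and none of NT or 5 min of replicate 1. How much of the 60 min signal of the members is sensitive to RNase H cannot be read from the peak lists.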

How the data were processed

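HCT116 cells in 3 treatments with 2 biological replicates gave 18 samples, of which the 6 DRIP and 6 RNase H peak lists were analysed and the inputs were not. Groups and replicate numbers came from the sample labels. Per the labels and methods, the authors used cutadapt for trimming, BWA for alignment (hg19, and sacCer3 for a yeast spike-in), SAMtools, and MACS2 for peaks of every library with its paired input as control, and replicates were not pooled. Tool versions and the peak threshold are not given in the sources used here. The deposited fold enrichment is the ratio of the summit to input. Significance was deposited as −log10 p and −log10 q, and each of these 3 values ranks peaks within 1 list only. The lists carry no spike-in scaling and no depth.

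Within a treatment, only peaks that met a peak of the other replicate over 1 bp or more were kept and merged. The merged peaks of the 3 treatments were then joined into regions. Heights were turned into percentiles within a list. Positions came from GENCODE release 44 lifted to GRCh37 (20163 protein-coding genes), the build of hg19. Gene models named only by an identifier and readthrough models were not named. The promoter and terminator windows may overlap. Sequences and restriction sites were read from GRCh37. Shares carry 95% Wilson intervals. Only the RNase H comparisons were tested, by exact permutation over libraries.

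The members and the 16 gene lists were chosen with earlier results of these data known. Named were the 20 members with the highest lowest percentile over the 4 lists, up to 4 genes per gene list in that order, the FBXL8/HSF4 locus and 5 regions on each side of the threshold. Some items that this rule names are not reported here. The genes given as examples of more than 1 member were picked after their values were seen. The alternatives were peaks with a −log10 q of at least 3, lists cut to equal length, a replicate overlap of at least 50%, merging over gaps of 1000 bp, a looser absence at 5 min, chromosomes 1 to 22 and X, removal of members with RNase H peaks, other windows and ranks, a replicate block and the omission of either replicate. Simulated lists were used to check how regions are built and classed, and cases with known answers to check the exact tests. The other steps were not checked this way. Python 3.11.15, NumPy 2.4.6, pandas 2.3.3, SciPy 1.17.1 and Matplotlib 3.10.9 were used.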

Additional observations from a re-analysis of the deposited data

How the results depend on the processing

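Of 108 values recomputed under the alternatives, 70 stayed within their limits (same direction and side of the threshold, within 1.5 times for counts, or within the interval or spread of the main value). Some of these had little or no room to move. Keeping only chromosomes 1 to 22 and X left all 436 members in place. The RNase H differences from NT could change only in sign, since their exact tests cannot pass the threshold. The total is therefore no measure of robustness. Of the 436 members, 174 met a member when only peaks with a −log10 q of at least 3 were used and 223 when the DRIP lists were cut to equal length.

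With −log10 q of at least 3 the median width was 2772 bp. With DRIP lists cut to the shortest, the width was 2868 bp, the promoter share 34.7%, the terminator share 44.6%, the GC 56.6%, the shared NT interval 86.3% and the percentile difference -12.8 points. Merging peaks up to 1000 bp apart gave a width of 2709 bp and a shared NT interval of 65.5%. Absence in at least 1 of the 5 min lists gave 2119 members, a width of 3072 bp, a shared NT interval of 87.8%, 1948 genes and a reversed RNase H difference between members and other regions of 6.07 points (exact permutation p = 0.156). Removing the members met by an RNase H peak of NT or 60 min left 80 members and 79 genes, with a width of 1384 bp, a terminator share of 33.8%, a GC of 54.3%, a shared NT interval of 70.7% and a percentile difference of -10.6 points. Any overlap with the window gave 45.6% at promoters and 47.2% at terminators.

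Without replicate 1 or replicate 2, so that 1 list decided presence, members numbered 4355 to 6077, the width was 928 to 1008 bp, the terminator share 28.5% to 34.6%, the GC 52.3% to 54.1%, the shared NT interval 65.9% to 70.8% and the genes 2865 to 3365. The RNase H differences then ranged from 0.688 to 13.3 points at 5 min and from 1.61 to 65.8 at 60 min, and replicate 2 decides both. With RNase H lists cut to 473 peaks both differences from NT reversed to -0.459 points, a change of few members. The difference between members and other regions was -0.671 points with these short lists (exact permutation p = 0.0312). By bases it was -4.89 points at the same p. Since absence of 5 min DRIP peaks chose the members, no conclusion is drawn from either value. With the replicate block the differences of 7.0 and 33.7 points had a paired exact permutation p of 0.5, the smallest 2 pairs allow, and no call changed. The causes were not tested. The unknown depth of the lists limits every statement on absence.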
